A study of Mus musculus with 6 samples.

Results

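The interferon response and class I presentation genes examined here were 31 genes taken by symbol from the 52550 mouse genes counted in each library, and all 31 were found in the GRCm38 annotation. They were kept in 3 groups: 20 genes of the type I interferon response, 5 guanylate-binding and immunity-related GTPase genes, and 6 genes of antigen presentation. Their reads came from whole-heart RNA of mice at postnatal day 7, with 3 control hearts and 3 GR-cKO hearts. By the series title, GR-cKO animals carry a deletion of Nr3c1, which encodes the glucocorticoid receptor, aimed at heart muscle cells, and their hearts are called knockouts below. For the controls the genotype label is ctrl, and no strain, sex, Cre line or deleted exon is stated. Each library is labelled a biological replicate. Values listed by heart follow the order of replicates 1, 2 and 3.

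Interferons bind receptors on the cell surface, and the kinases Jak1, Jak2 and Tyk2 then activate Stat proteins. Type I interferon acts through a complex that holds Stat2 and Irf9 and binds the interferon-stimulated response element (ISRE), whereas interferon gamma acts mainly at gamma-activated sites (GAS). The induced proteins detect viral RNA, block virus replication and load peptides onto class I molecules, and many cells, heart cells included, hold a low level of them without infection. Glucocorticoids are known to restrain inflammatory transcription through their receptor.

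RefSeq promoter windows (GRCm38.p6, from 250 bases before to 50 bases after a start site) matched 27 of the 31 genes. The ISRE, searched on both strands as GAAA, any 2 bases and GAAA again, lay in a window of 15 of these 27 genes (55.6%), against 3.99% of the 27025 genes in the table. All 5 guanylate-binding genes held it, as did 9 of 16 type I response genes and 1 of 6 presentation genes. Only exact matches were counted, so a gene without one may still hold a variant of the element. The 15 genes had 23 matches, of which overlapping ones were counted separately, and 13 began within 100 bases before the start site. The upstream 150 bases of 6 of these genes are shown because their levels are given below and they place the motif differently. Matches are in capitals, and a match on the strand opposite to the gene shows as TTTC, any 2 bases and TTTC. They lie at chr12:26456453-26456602 (minus strand) for Rsad2, chr4:156200819-156200968 (minus strand) for Isg15, chr3:142530186-142530335 (plus strand) for Gbp7, chr11:58199406-58199555 (plus strand) for Igtp, chr3:142559894-142560043 (plus strand) for Gbp3 and chr2:122147537-122147686 (plus strand) for B2m.
Rsad2: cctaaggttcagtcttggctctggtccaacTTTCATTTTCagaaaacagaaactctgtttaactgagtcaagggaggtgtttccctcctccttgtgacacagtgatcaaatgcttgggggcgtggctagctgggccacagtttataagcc
Isg15: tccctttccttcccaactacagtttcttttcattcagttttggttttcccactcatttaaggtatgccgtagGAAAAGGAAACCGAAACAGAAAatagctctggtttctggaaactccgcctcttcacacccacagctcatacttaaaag
Gbp7: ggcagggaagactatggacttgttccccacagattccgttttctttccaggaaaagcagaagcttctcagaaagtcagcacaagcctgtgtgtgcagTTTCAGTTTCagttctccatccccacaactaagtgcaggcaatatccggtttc
Igtp: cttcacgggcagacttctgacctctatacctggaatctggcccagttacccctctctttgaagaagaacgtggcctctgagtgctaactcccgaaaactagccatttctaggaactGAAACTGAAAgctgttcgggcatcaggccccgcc
Gbp3: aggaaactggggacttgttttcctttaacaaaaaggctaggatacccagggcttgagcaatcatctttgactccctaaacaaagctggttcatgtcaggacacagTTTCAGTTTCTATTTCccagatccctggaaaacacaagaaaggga
B2m: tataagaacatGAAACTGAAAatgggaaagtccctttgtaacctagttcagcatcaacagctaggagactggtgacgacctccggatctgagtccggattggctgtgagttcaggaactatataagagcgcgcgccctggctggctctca
Isg15 held 3 overlapping matches in a row, whose first bases lay 78, 72 and 66 bases before the start site (-78, -72 and -66). B2m had its single match farther upstream, at -139, and Rsad2 at -120.

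**Figure D1:**
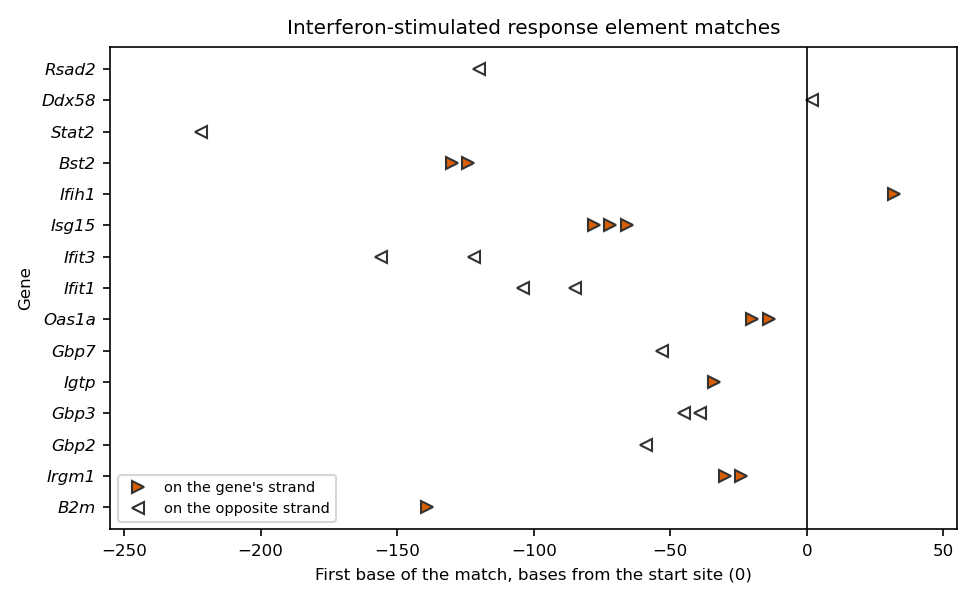
Position of each ISRE match in the promoter windows of the 15 member genes that hold one, as the first base of the match relative to the start site at 0. Of the 23 matches 21 lie before the start site, and those of Ddx58 and Ifih1 lie after it.

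The GAS sequence TTCNNNGAA was present for 8 of the 27 genes (29.6%, against 9.55% of all genes), among them Irf1, Gbp7, Igtp and Psmb8. A palindromic kappa B sequence of 11 bases occurred in both class I heavy chain genes, H2-K1 and H2-D1, and in 9 genes of the whole table in all (0.0333%). A second kappa B form that was searched was in B2m alone of the 27 genes, and in 0.174% of all genes. The full glucocorticoid response element, AGAACA and TGTTCT with any 3 bases between them, was in a window of 0 of the 27 genes and of 3 genes in the whole table (0.0111%), and the single site AGAACA was in 4 of 27 (14.8%, against 21.3%). These matches describe letters in a short window and not bound sites. The stretches around the palindrome of the heavy chain genes are shown with it in capitals, because they are nearly the same sequence, with 60 of 61 bases identical. They lie at chr17:34000423-34000483 (minus strand) for H2-K1 and chr17:35262898-35262958 (plus strand) for H2-D1.
H2-K1: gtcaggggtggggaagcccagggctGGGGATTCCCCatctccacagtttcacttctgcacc
H2-D1: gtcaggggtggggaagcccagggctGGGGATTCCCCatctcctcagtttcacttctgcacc

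Libraries held 18135540 to 22999192 reads. The level of Nr3c1 fell from 99.7 to 131 CPM in control hearts to 49.2 to 57.6 CPM in the knockouts, and its log2 fold change was -1.08 (edgeR adjusted p = 0.00101, SE 0.125). It was the only gene of 14860 tested that passed the threshold of 0.05 (0.00673%). CPM values relate a gene's reads to those of all tested genes and were scaled between libraries. Cardiomyocyte markers were abundant, with summed levels of 35070 to 43940 CPM for 7 genes, and these libraries also held RNA of endothelial cells, fibroblasts, macrophages and blood cells. In such bulk tissue, fewer cells of a type and less RNA per cell cannot be told apart. GR-cKO replicate 3 stood apart by the ribosomal RNA-overlapping transcript Gm42418, at 10.9% of mouse reads against 5.47 to 7.69% in the other 5. Because these libraries count transcript ends, a gene's length does not enter its CPM. Levels of different genes are set side by side with the limit that shared transcript ends and overlapping genes may affect some counts.

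No interferon or class I gene passed the test between genotypes. Of the 31 genes 28 had enough reads for the test, and 0 of these passed (edgeR, adjusted p = 0.998 for the smallest). At an unadjusted p under 0.05, 2 members were higher in the knockouts, Isg15 and H2-K1, and 0 were lower, or 7.14% of the 28 against 4.2% of all tested genes (2.07% higher and 2.13% lower, 308 and 316 genes). That split was 170 and 361 genes with library totals as the only scaling and 160 and 83 with spike-in scaling, which gave 1 member each, Isg15, and 0 lower. DESeq2 and limma voom also called 0 of the 28. Their log2 fold changes ran from -0.42 to 1.15 with a median of 0.12, beside a median of 0.01 over all tested genes, and 21 of 28 were positive (75.0%, against 51.3%). The count of positive members was 17 with library totals, 22 with spike-in scaling and 17 to 21 when any single library was left out. A weakly expressed gene may meet the read filter thanks to its higher group alone. Among the 24 members with a mean of at least 2 CPM, 17 were positive and the median was 0.06.

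The 95% interval lay within a 2-fold change in either direction for 19 of the 28 members (67.9%, against 72.2% of all tested genes), and within a 1.5-fold change for 6 (21.4%, against 47.8%). The design could therefore bound most members at 2-fold, and few more tightly. All 3 GR-cKO hearts lay above all 3 control hearts for 4 members, Isg15, Ifit3, Ifi35 and Psmb9 (14.3%, against 4.7% of all tested genes), and below them for 0 members (5.27% of all tested genes, or 9.97% in either direction).

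**Figure D2:**
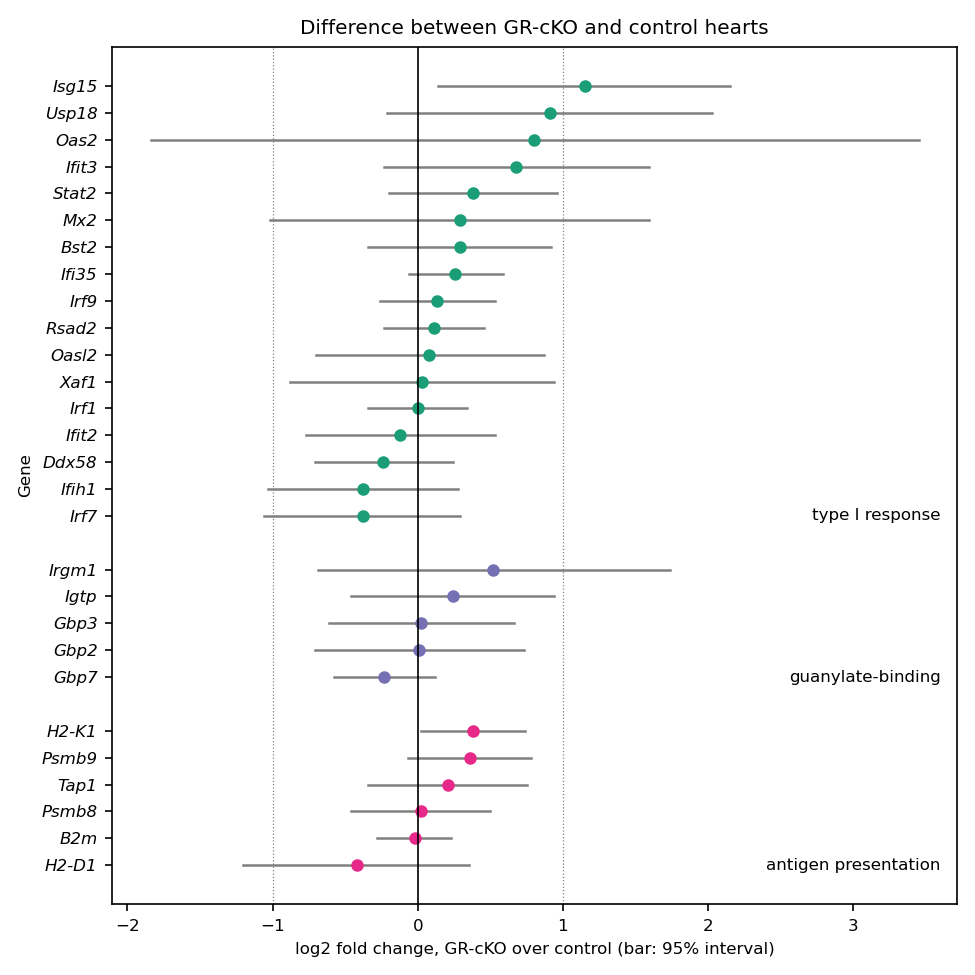
Log2 fold change of GR-cKO over control for the 28 tested members, with 95% intervals as bars and dotted lines at a 2-fold change in either direction. The intervals of Isg15 and H2-K1 alone lie above 0, and that of Oas2 is the widest.

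The transcription factors of the pathway were expressed in every heart. Irf9, a DNA-binding partner of Stat2, was at 26.1, 17.0 and 17.1 CPM in the controls and at 22.1, 24.9 and 18.9 CPM in the knockouts. The ranges of the groups overlapped, with the highest value in a control heart, and the log2 fold change was 0.13 (95% interval -0.26 to 0.53). Its gene overlaps Rnf31 on the same strand. Irf1, a factor induced early by interferon gamma, was at 22.3, 18.9 and 21.2 CPM in the controls and 18.3, 20.7 and 23.5 CPM in the knockouts. The means of both groups were 20.8 CPM, and the interval of the log2 fold change was -0.34 to 0.34. Stat2 was at 6.02 ± 1.39 CPM in the controls and 7.80 ± 2.21 CPM in the knockouts (SD, n = 3 each). Irf7, the factor that amplifies interferon production, was at 4.30 ± 0.508 and 3.30 ± 0.938 CPM (SD, n = 3 each), and its gene overlaps Phrf1 on the opposite strand, so that its count is uncertain if strand was not used.

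Rsad2, whose product viperin restricts many viruses, had the highest level of the 20 type I members. It was at 50.9, 36.9 and 31.3 CPM in the controls and at 44.9, 37.0 and 46.8 CPM in the knockouts, with all GR-cKO values inside the control range. Ifi35, an interferon-induced leucine zipper protein, was at 17.9, 17.2 and 18.1 CPM in the controls and 20.8, 22.3 and 20.8 CPM in the knockouts. The groups did not overlap, and the difference was small, with a log2 fold change of 0.26 (edgeR adjusted p = 0.998, SE 0.156).

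Isg15, a ubiquitin-like protein that is conjugated to other proteins during the response, had the largest log2 fold change of the members. Its reads were 13, 38 and 31 in the controls and 53, 84 and 41 in the knockouts, or 0.568, 1.95 and 1.63 CPM against 2.96, 3.96 and 2.21 CPM. Every GR-cKO heart was higher than every control heart, and the nearest values of the groups, 1.95 and 2.21 CPM, lay close together. For Isg15 the log2 fold change came to 1.15 (SE 0.481, 95% interval 0.14 to 2.15, edgeR adjusted p = 0.998). It was 0.77 without control replicate 1 and 0.90 without GR-cKO replicate 2, and Isg15 was then not under an unadjusted 0.05, while leaving out the other 4 hearts in turn gave 1.17 to 1.48.

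Usp18, the protease that removes Isg15 from proteins and damps the type I receptor, was at 1.01, 2.16 and 0.577 CPM in the controls and 1.73, 2.03 and 3.28 CPM in the knockouts. The groups overlapped, since control replicate 2 exceeded GR-cKO replicates 1 and 2, and the log2 fold change was 0.91 (95% interval -0.21 to 2.03). It ran from 0.58 without control replicate 3 to 1.55 without control replicate 2, where Usp18 was under an unadjusted 0.05. Ifit3, whose product joins other Ifit proteins on viral RNA, was named after its values were seen, because its groups did not overlap. It was at 2.27, 1.59 and 1.05 CPM in the controls and 2.29, 2.83 and 2.80 CPM in the knockouts, so that control replicate 1 and GR-cKO replicate 1 were nearly equal. Of the words of 50 bases in the last 400 bases of its transcripts, 19.1% also occurred in Ifit3b, and reads there cannot be assigned to 1 gene.

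Several antiviral genes were at the limit of detection. Oas2, a synthase that activates RNase L, had 0, 23 and 6 reads in the controls and 20, 31 and 0 reads in the knockouts. Both groups held a heart without a read, and a count of 0 allowed up to 0.131 CPM in that control library and 0.161 CPM in that GR-cKO library. Its interval, -1.84 to 3.45, was the widest of the members. The 3 members that failed the read filter were Ifit1, Oas1a and Mx1. Ifit1, which binds viral RNA caps, had 8, 4 and 9 reads in the controls and 16, 7 and 23 in the knockouts. Oas1a, a relative of Oas2, had 0, 25 and 0 reads in the controls and 10, 0 and 1 in the knockouts, and 43.6% of the words at its transcript ends were shared with Oas1g. Mx1, a dynamin-like antiviral GTPase, had 13 reads in control replicate 2 and 0 in the other 5 hearts. Such limits cover counting error only, since libraries without molecular identifiers may hold copies of 1 molecule.

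The other type I members lay between these levels and overlapped between groups. The RNA sensors Ifih1 and Ddx58 had log2 fold changes of -0.38 and -0.24. The remaining genes, Ifit2, Oasl2, Mx2, Bst2 and Xaf1, ran from -0.12 for Ifit2 to 0.29 for Bst2 and Mx2. Mx2 is annotated as a polymorphic pseudogene and had only 14 to 22 reads per heart. Over the 17 tested type I genes the median was 0.13, with 13 positive and 4 negative values.

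**Figure D3:**
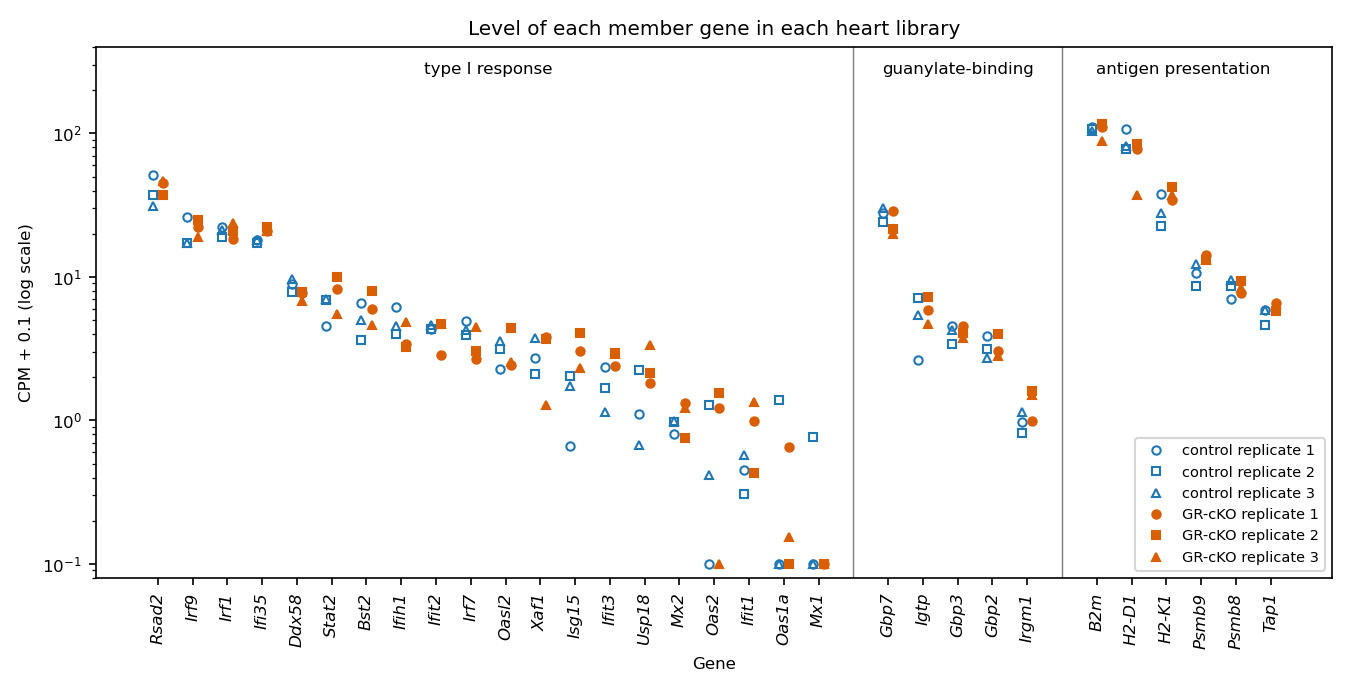
CPM plus 0.1 on a log scale for each of the 31 members, with 1 point per library, open for control and filled for GR-cKO hearts. B2m and H2-D1 lie at the top, Oas2, Ifit1, Oas1a and Mx1 at the bottom, and points of both groups overlap for most genes.

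Guanylate-binding and immunity-related GTPases attack the vacuoles of intracellular pathogens and are strongly induced by interferon gamma. All 5 were tested, with a median log2 fold change of 0.02 that was -0.01 with library totals. Of these, 0 of 5 had groups that did not overlap, against 9.97% of all tested genes. Gbp7 was by far the most abundant, at 27.8, 24.1 and 29.9 CPM in the controls and 28.5, 21.5 and 19.7 CPM in the knockouts. GR-cKO replicate 1 lay among the controls and the other GR-cKO hearts below them, for a log2 fold change of -0.23 (95% interval -0.58 to 0.12). Gbp3 was at 4.42, 3.29 and 4.20 CPM in the controls and 4.47, 3.96 and 3.66 CPM in the knockouts, and Gbp2 at 3.15 ± 0.600 and 3.17 ± 0.617 CPM (SD, n = 3 each).

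Igtp, an immunity-related GTPase also known as Irgm3, spread more between control hearts than between genotypes. It was at 2.54, 7.04 and 5.35 CPM in the controls and 5.81, 7.17 and 4.57 CPM in the knockouts, with control replicate 1 lowest of the 6. Its log2 fold change of 0.24 turned to -0.08 without control replicate 1, and its gene overlaps Irgm2 on the same strand. Irgm1, a regulator of the other family members, was at 0.874, 0.719 and 1.05 CPM in the controls and 0.893, 1.51 and 1.40 CPM in the knockouts. GR-cKO replicate 1 was inside the control range, and the interval of -0.69 to 1.74 reached past 2-fold.

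Antigen presentation genes included the most abundant members. B2m, the light chain shared by all class I molecules, was at 111, 108 and 103 CPM in the controls and 111, 117 and 88.5 CPM in the knockouts. The highest and the lowest value were both GR-cKO hearts, and its interval, -0.28 to 0.23, was the narrowest of the 28. Spike-in scaling turned its log2 fold change from -0.02 to 0.05.

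H2-K1 and H2-D1, the heavy chains that present peptides with B2m, had log2 fold changes of opposite sign. H2-K1 was at 37.7, 22.4 and 27.7 CPM in the controls and 34.2, 42.5 and 37.4 CPM in the knockouts. Control replicate 1 lay within the GR-cKO range and the other controls below it, with a log2 fold change of 0.38 (SE 0.171, 95% interval 0.02 to 0.74, edgeR adjusted p = 0.998). It was 0.22, 0.34 and 0.29 without control replicate 2, control replicate 3 or GR-cKO replicate 2, and H2-K1 was then not under an unadjusted 0.05, and it was 0.60 without control replicate 1. H2-D1 was at 108, 78.1 and 81.8 CPM in the controls and 77.9, 83.9 and 37.4 CPM in the knockouts. GR-cKO replicate 3 stood well below the other 5, which were within a narrow band apart from control replicate 1. The log2 fold change of H2-D1 was -0.42 (95% interval -1.20 to 0.35) and was -0.14 without GR-cKO replicate 3.

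The ratio of H2-K1 to H2-D1, computed after their values were seen, was 0.350, 0.287 and 0.339 in the controls and 0.439, 0.507 and 1.00 in the knockouts. All GR-cKO hearts lay above all controls, and GR-cKO replicate 3 was the highest. The ratio of B2m to H2-D1, also chosen after the values were seen, was 1.03, 1.38 and 1.26 in the controls. In the knockouts it was 1.43, 1.39 and 2.36, so that its groups did not overlap either, with 1.38 and 1.39 the nearest values. The sum of H2-K1 and H2-D1 was 145, 100 and 109 CPM in the controls and 112, 126 and 74.9 CPM in the knockouts, and overlapped. Of the words of 50 bases at their transcript ends, 10.2% for H2-K1 and 10.1% for H2-D1 also occurred in other genes, each other included, so that their counts are uncertain. These genes differ in sequence between mouse strains, and whether that bears on the counts was not tested.

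**Figure D4:**
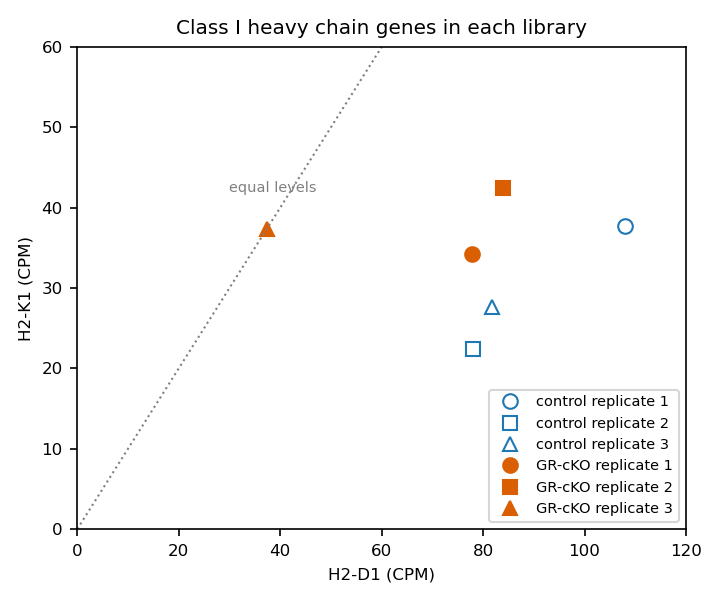
H2-K1 against H2-D1 in CPM, 1 point per library, with a dotted line of equal levels. The controls and GR-cKO replicates 1 and 2 lie to the right of the line, and GR-cKO replicate 3 lies on it, at 37.4 CPM for both genes.

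Of the 6 presentation genes, 1 had groups that did not overlap (16.7%, against 9.97% of all tested genes in either direction). Psmb9, an immunoproteasome subunit that replaces Psmb6, was at 10.5, 8.53 and 12.2 CPM in the controls and 14.0, 13.1 and 13.0 CPM in the knockouts, a log2 fold change of 0.36 (edgeR adjusted p = 0.998, SE 0.202). Psmb8, which replaces Psmb5, was at 8.29 ± 1.30 and 8.37 ± 0.857 CPM, and Tap1, a subunit of the transporter that carries peptides into the endoplasmic reticulum, was at 5.37 ± 0.734 and 6.20 ± 0.471 CPM (SD, n = 3 each). The genes of Psmb9 and Tap1 overlap on opposite strands. Immunoproteasome transcripts were at lower levels than their constitutive counterparts in both groups. The ratio of Psmb8 to Psmb5 was 0.162 ± 0.0386 in the controls and 0.173 ± 0.0289 in the knockouts, and that of Psmb9 to Psmb6 was 0.0430 ± 0.0117 and 0.0491 ± 0.00999 (SD, n = 3 each). Psmb10, the third immunoproteasome subunit, stood at a ratio of 0.469 ± 0.0557 and 0.493 ± 0.0443 to Psmb7 (SD, n = 3 each).

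Members varied by heart as well as by gene. GR-cKO replicate 2 had the highest level of the 6 libraries for 13 of the 28 tested members (46.4%), against 15.3% of all tested genes, and control replicate 2 for 0 of them (17.9% of all tested genes). The mean deviation of the members from their 6-library mean was 0.25 on the log2 scale in GR-cKO replicate 2 and 0.10 and -0.09 in GR-cKO replicates 1 and 3. In control replicates 1, 2 and 3 it was -0.13, -0.06 and -0.06. Over the 24 members of at least 2 CPM it was -0.02, -0.13 and -0.01 in the controls and 0.04, 0.20 and -0.09 in the knockouts. On both counts GR-cKO replicate 3 lay within the range of the controls, and over all tested genes its value was -0.05. The counts of highest values were 8 of 17 for type I genes, 3 of 5 for guanylate-binding genes and 2 of 6 for presentation genes in GR-cKO replicate 2.

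**Figure D5:**
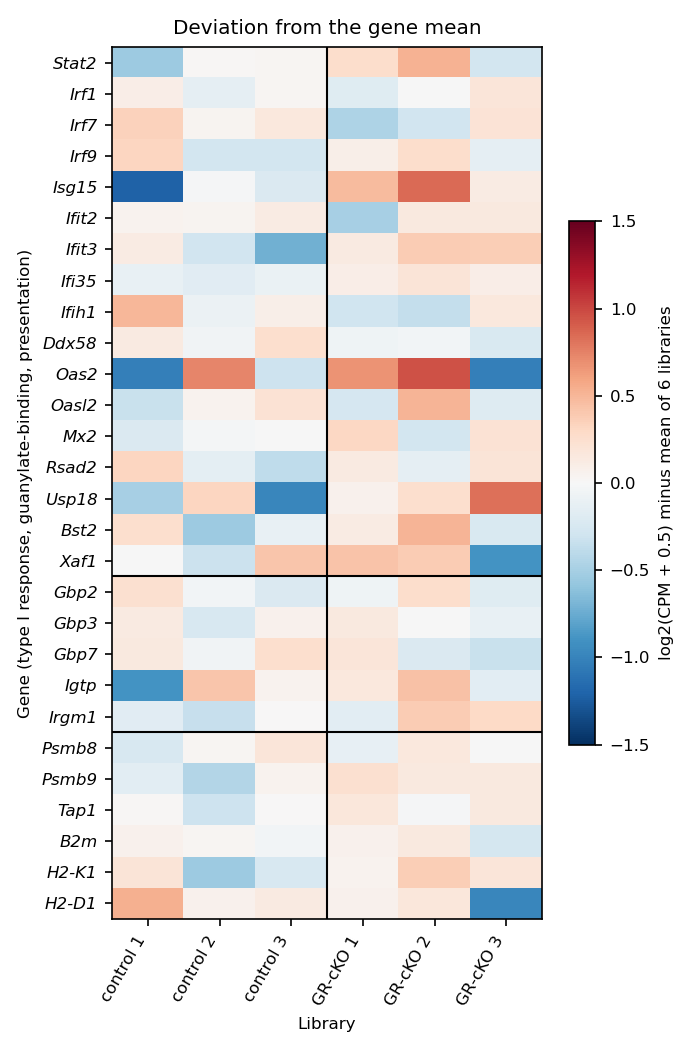
Deviation of log2(CPM + 0.5) from the mean of the 6 libraries for each tested member (rows, in 3 groups split by black lines) in each library (columns). GR-cKO replicate 2 is mostly red. Squares of strong deviation include those of Isg15 and Oas2 in control replicate 1 and Usp18 in control replicate 3. They also include those of Oas2 and H2-D1 in GR-cKO replicate 3.

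Markers of immune cells are set beside this pattern, and their part in it was not tested. The 9 markers of T and NK cells summed to 1.26 to 4.21 CPM in the controls and 1.40 to 5.61 CPM in the knockouts, highest in GR-cKO replicate 2, and Ncr1 had no read in any heart. The markers did not follow 1 order, since Nkg7 had 22 reads in GR-cKO replicate 2 and 0 or 1 elsewhere, Cd8a was highest in control replicate 2 with 25 reads, and Klrb1c in control replicate 1 with 12. The 2 that were tested, Cd3e and Cd3d, were highest in GR-cKO replicate 1. Control replicate 2, highest for 0 of the 28 tested members, had the second highest sum. Neutrophil markers, 4 of 8 tested, summed to 12.8 to 14.6 CPM in the controls and 19.4 to 26.5 CPM in the knockouts, highest in GR-cKO replicate 1, with Elane at 0 throughout. All 4 tested ones had positive log2 fold changes. S100a8 and Ngp, at 0.69 and 1.68, had groups that did not overlap and were under an unadjusted 0.05, though neither passed over all genes. Over all tested genes, 4.7% had groups that did not overlap in this direction, and 2.07% were higher at an unadjusted p under 0.05. The untested Csf3r had 6, 6 and 5 reads in the controls and 2, 5 and 0 in the knockouts, and Retnlg had 4, 2 and 10 against 0, 5 and 4. The 9 macrophage markers summed to 153.5 to 187.4 CPM in the controls and 160.9 to 193.7 CPM in the knockouts. Of these, 1 had groups that did not overlap with the knockouts lower (5.27% of all tested genes), and 0 with the knockouts higher. Of 5 markers of plasmacytoid dendritic cells, known producers of type I interferon, Klk1 had no read. The defining marker Siglech had 3 reads in control replicate 2, 6 reads in GR-cKO replicate 1 and none elsewhere. Ccr9 had 0, 11 and 0 reads in the controls and 9, 5 and 7 in the knockouts. Ly6d was read in every heart, with 39, 44 and 33 reads against 40, 38 and 29. The sum of the 5 markers was 562.3 to 657.9 CPM in the controls and 593.9 to 651.5 CPM in the knockouts. It came almost wholly from Tcf4, which many other cells express.

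The rest of the pathway was read from 115 further genes in 9 lists, of which 88 were tested and 0 passed over all genes (edgeR, adjusted p = 0.998 for the smallest). Of these 50 had a positive and 38 a negative log2 fold change, with a median of 0.03. At an unadjusted p under 0.05, 2 were higher and 0 lower (2.27%, against 4.2% of all tested genes). Ligand transcripts were nearly absent, with 0 reads for 7 of 8 interferon genes in all 6 hearts and 7 reads of Ifng in control replicate 3.

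Receptors and kinases were present in every heart, and 5 of 10 were positive. Jak1, the kinase common to all interferon receptors, was at 140 ± 7.37 CPM in the controls and 143 ± 3.82 CPM in the knockouts (SD, n = 3 each, 95% interval of the log2 fold change -0.20 to 0.25). Among 14 sensors and adaptors, of which 12 were tested, the most abundant, Trim25, the ligase that acts with Ddx58, was at 66.0 ± 3.34 and 58.5 ± 12.6 CPM (SD, n = 3 each). Aim2, the sensor of cytosolic DNA, was at 0.656, 1.34 and 1.26 CPM in the controls and 2.90, 2.73 and 2.04 CPM in the knockouts. Its groups did not overlap, and its log2 fold change was 1.24 (edgeR adjusted p = 0.998, SE 0.481). The inhibitor list, 8 of 9 tested, had a median of 0.09, and its most abundant gene Samhd1, which degrades nucleotides needed by viruses, was at 33.3 ± 1.75 and 30.4 ± 6.91 CPM (SD, n = 3 each).

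Other interferon-induced genes, 26 of 30 tested, were split into 14 positive and 12 negative log2 fold changes, with a median of 0.01. Ifitm3, a membrane protein that blocks virus entry, was at 87.3 ± 3.97 and 82.8 ± 4.85 CPM in the controls and the knockouts (SD, n = 3 each). Of the other GTPase genes, 6 of 14 tested, Iigp1, an immunity-related GTPase, was at 16.0, 23.8 and 19.2 CPM in the controls and 30.3, 19.9 and 35.4 CPM in the knockouts. GR-cKO replicate 2 lay inside the control range and the others above it, with a log2 fold change of 0.53 (edgeR adjusted p = 0.998, SE 0.201).

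Among the other class I pathway genes, 16 of 19 were tested, with 9 positive, 7 negative and a median of 0.02. The chaperone Calr, which helps to load class I molecules, was at 376 ± 20.8 and 333 ± 14.2 CPM (SD, n = 3 each), with all GR-cKO hearts below all controls and a log2 fold change of -0.17 (edgeR adjusted p = 0.998). Class II genes, 6 of 7 tested, had a median of 0.11, and Cd74, the invariant chain of antigen-presenting cells, was at 2.26 ± 0.475 and 3.05 ± 1.10 CPM (SD, n = 3 each). The 4 constitutive proteasome genes had a median of -0.05, and Psmb6 was at 247 ± 29.8 and 279 ± 53.6 CPM (SD, n = 3 each).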

How the data were processed

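Whole-heart RNA of 3 control and 3 GR-cKO mice was made into QuantSeq FWD libraries, which read transcript 3′ ends, from 100 ng of total RNA per the labels' protocols. The deposited files hold counts, whole reads per Ensembl gene, 1 library per file. Per the submitters' processing notes, the named tools include featureCounts 1.6.2 and STAR 2.5.4a, and the named build is GRCm38. The strand setting and the annotation release were not given in the sources used here. Symbols came from GENCODE M21 and matched 52403 of 52550 mouse rows. The 92 ERCC and 7 SIRV rows, 1.63 to 2.01% of reads, stayed out of the test.

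Under R 4.3.3, edgeR 4.0.16 served for the test: filterByExpr chose the genes, which were scaled by the trimmed mean of M-values (TMM) and tested by genotype with the robust quasi-likelihood F test, with Benjamini-Hochberg adjustment over 14860 genes. Fold changes are GR-cKO over control. Intervals are 95% and rest on a standard error derived from each log2 fold change and its F statistic. Alternatives were DESeq2 1.42.0, limma voom 3.58.1, library totals, spike-in scaling, no filter, a replicate block and each library left out. On simulated data for this comparison with 14470 genes, 64.0% of 2-fold and 94.9% of 4-fold changes were recovered, and 15 unchanged genes were called. The simulation changed 100 genes 2-fold and 99 genes 4-fold, and left weakly expressed genes out of the change. With 1 gene called in the real data, the adjusted threshold was stricter there. These shares therefore do not give the chance that a changed member would have been called. Members and lists were chosen with earlier results of these data known. Values in every library are given for the 3 members per group of highest mean CPM, smallest p and widest range, and for related genes those at an unadjusted p under 0.05 are given with values, as is the most abundant gene of each list. The p-values set the difference between genotypes against the spread between these libraries.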

Additional observations from a re-analysis of the deposited data

How the results depend on the processing

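None of the 28 tested members passed the threshold in any of the 12 alternatives (edgeR, DESeq2 and limma voom), and 18 kept the sign of their log2 fold change in all of them. Genes called over the whole table, 1 in the analysis as reported, were 4 with DESeq2, 2 with library totals, 10 with no filter and 1 to 2 with each library left out. Members higher at an unadjusted p under 0.05, 2 as reported, were 1 with library totals, 1 with spike-in scaling and 0 to 3 with each library left out, with 0 when GR-cKO replicate 2 was absent, 1 when control replicate 1 or 3 was, and 3 when GR-cKO replicate 3 was, while without control replicate 2 the 2 were Isg15 and Usp18. Members lower among the same 28, 0 as reported, were 1 with no filter (H2-D1; Mx1, tested only there, was also lower, on 13 reads of control replicate 2), 1 with the replicate block (H2-D1) and 0 to 1 with each library left out (Gbp7 without GR-cKO replicate 1). The median log2 fold change of type I response genes, 0.13, was 0.20 with spike-in scaling and 0.06 (without GR-cKO replicate 2) to 0.28 (without control replicate 3) with each library left out. Signs turned for log2 fold changes near 0. Library totals gave -0.04 for Irf1, -0.02 for Gbp2, -0.01 for Gbp3 and -0.02 for Psmb8, spike-in scaling 0.05 for B2m, limma voom 0.00 for Irf1 and -0.08 for Xaf1, and the replicate block 0.00 for Irf1 and -0.04 for Xaf1. With each library left out, values ran from -0.09 to 0.09 for Irf1, -0.24 to 0.09 for Ifit2, -0.26 to 0.24 for Oasl2, -0.03 to 0.33 for Rsad2, -0.20 to 0.39 for Xaf1, -0.16 to 0.17 for Gbp2, -0.10 to 0.11 for Gbp3, -0.08 to 0.58 for Igtp, -0.10 to 0.12 for Psmb8 and -0.11 to 0.09 for B2m. The cause was not tested. Whether the replicate numbers pair the hearts cannot be told from 3 hearts per group. Deviations of same-numbered libraries correlated across genes at 0.062, 0.0562 and 0.0144, and those of differently numbered ones at -0.0893 to 0.0294. Control replicate 3 correlated best with GR-cKO replicate 1, at 0.0228. With the replicate block 1 gene was called. Depth limits the weak genes, since 0 of the 4 tested members under 2 CPM and 19 of the 24 others had intervals within 2-fold.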

Other observations

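Of the receptor genes of interferons, Ifngr2 and Ifnar1 were chosen after their values were seen, because GR-cKO replicate 3 stood below the other 5 hearts in both, as it did for H2-D1. Other receptor chains were highest in that heart, Ifngr1 at 75.9 CPM, Ifnar2 at 25.2 CPM and Il10rb at 66.3 CPM, and of the 14860 tested genes it was lowest for 3270 and highest for 3421. Ifngr2, the signalling chain of the interferon gamma receptor, was at 135, 112 and 134 CPM in the controls and 123, 107 and 58.6 CPM in the knockouts. Ifnar1, a chain of the type I receptor, ran from 14.7 to 21.1 CPM in the controls and was at 18.3, 17.4 and 9.84 CPM in the knockouts. Neither passed the edgeR test over all genes (adjusted p = 0.998 for both). Nlrc5, the main activator of class I transcription, had 7 reads in control replicate 2, 2 reads in GR-cKO replicate 3 and none in the other 4 hearts.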
